A study of Mus musculus with 4 samples.

Results

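The genes described here serve the response of a cell to amino acid shortage and to unfolded protein in the endoplasmic reticulum (ER). They comprise the transcription factor ATF4 with its partners and targets, the enzymes of serine, folate, proline and cysteine metabolism, tRNA synthetases, and the sensors, chaperones and degradation factors of the ER. They were named by function, as 48 genes, with earlier results of these data known. Of these, 46 had a probe set that names them alone, out of 19937 such genes on the array. All 46 lay above the signal filter and were tested. Pycr1 and Aars had no probe set of their own in the annotation used, and their levels were not analysed here.

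The study measured transcripts in primary neurospheres, which are floating cultures of stem and progenitor cells, from the walls of the lateral ventricles of C57BL/6 mice aged 9 to 12 weeks. All cultures, controls included, were given non-targeting control siRNAs, and a virus brought in Pax6, a neurogenic transcription factor. Differentiation on laminin without growth factors then lasted 10 h. The DMSO group (2 arrays) was kept in 0.01% DMSO, and the olaparib group (2 arrays) in 100 nM olaparib, a drug that blocks PARP1 and PARP2, enzymes of DNA repair, in that solvent. The drug was present from the 5 h incubation with virus, through 36 h of culture, to the end of differentiation. Arrays of a group are biological replicates by label, and with 2 a group their number limits the precision. Whether they came from separate animals is not given, so p-values measure the spread between these samples only. In such bulk RNA, fewer cells of a type and less RNA per cell cannot be told apart.

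When protein folding fails or amino acids run short, kinases phosphorylate the initiation factor eIF2alpha. General translation then slows while ATF4 protein is made, and ATF4 raises genes of amino acid synthesis, transport and tRNA charging. The ER has separate sensors, among them ATF6 and IRE1 (encoded by Ern1) with its target XBP1, which raise chaperones. In neural progenitors, serine made by PHGDH feeds the folate cycle and with it nucleotide synthesis.

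To show where the pathways meet the genes, the RefSeq promoter of each member (GRCm38.p6, 250 bases before to 50 after the annotated start) was searched on both strands. A promoter was given for 43 of the 48 members. The C/EBP-ATF response element, CARE, through which ATF4 acts, was searched as TGATGNAA. It was held by 10 members (23.3%), against 4.51% of all 27025 genes with a promoter and 3.97% of all 32851 promoters. The 10 were 5 of 12 ATF4 regulators and targets, 3 of 4 tRNA synthetases with a promoter (Aars among them), Pycr1 and Herpud1. None of the 8 serine and folate enzymes held it, which says only that these letters are not in that window. Many members are known as targets of ATF4 or of the ER sensors, so the higher share is no independent finding. The matches of the 8 that were measured are shown with 10 bases on each side and the motif in capitals, on the strand that reads TGATGNAA, ordered by their change with olaparib.
Nupr1, chr7:126625563-126625590, plus strand: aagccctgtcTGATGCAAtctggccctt
Gars, chr6:55037961-55037988, minus strand: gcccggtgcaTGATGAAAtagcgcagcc
Asns, chr6:7693215-7693242, minus strand: cccagccacaTGATGAAActtcccgcac
Vldlr, chr19:27216810-27216837, minus strand: ctaggagcgcTGATGCAActattgctgc
Herpud1, chr8:94386307-94386334, minus strand: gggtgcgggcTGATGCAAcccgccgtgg
Chac1, chr2:119351039-119351066, minus strand: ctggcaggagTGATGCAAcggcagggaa
Trib3, chr2:152344029-152344056, plus strand: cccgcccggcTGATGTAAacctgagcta
Tars, chr15:11399656-11399683, plus strand: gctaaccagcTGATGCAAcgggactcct

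In the same order, these genes differed by 0.54 (Nupr1), 0.31 (Gars), 0.30 (Asns), 0.15 (Vldlr), 0.10 (Herpud1), 0.097 (Chac1), 0.059 (Trib3) and -0.065 (Tars), olaparib minus DMSO on the log2 scale. Only Nupr1 passed the test described below. The match lies from -110 to -103 in Nupr1, from -30 to -23 in Gars and from -23 to -16 in Asns, counted from the annotated start. Over all 293 tested genes that hold CARE, 16 were higher and 7 lower, or 5.46% and 2.39%, and their median change was -0.00087. Over all genes tested these shares are 2.84% and 3.37%, and no test was made of the difference.

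The ER stress element, ERSE, through which ATF6 and XBP1 act, was searched as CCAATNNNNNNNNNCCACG. It was held by 7 members, or 16.3%, and by 0.137% of all genes with a promoter (0.119% of promoters). All 7 are among the 11 ER chaperones and folding factors with a promoter. No member held both CARE and ERSE, and matches did not overlap. The matches of 5 chaperone and folding genes are shown on the strand that reads CCAAT first, again ordered by change. Hsp90b1 holds the motif at 2 places, and the one nearer to the start is shown.
Creld2, chr15:88819510-88819548, minus strand: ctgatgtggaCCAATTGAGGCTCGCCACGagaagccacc
Hsp90b1, chr10:86705523-86705561, plus strand: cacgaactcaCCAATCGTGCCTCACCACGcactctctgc
Calr, chr8:84847065-84847103, plus strand: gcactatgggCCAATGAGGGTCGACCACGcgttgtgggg
Hspa5, chr2:34772015-34772053, plus strand: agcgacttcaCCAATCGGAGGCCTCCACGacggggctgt
Dnajc3, chr14:118937817-118937855, plus strand: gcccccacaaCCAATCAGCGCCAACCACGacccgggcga

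These genes differed by 0.15 (Creld2), 0.14 (Hsp90b1), -0.0032 (Calr), -0.17 (Hspa5) and -0.21 (Dnajc3), and none passed the test. Canx and Pdia6, which hold the motif too, differed by -0.0099 and -0.076. The 17 tested genes that hold ERSE in all had a median change of -0.0099, with 0 higher and 0 lower. Genes that share this element thus lay on both sides of 0.

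**Figure D1:**
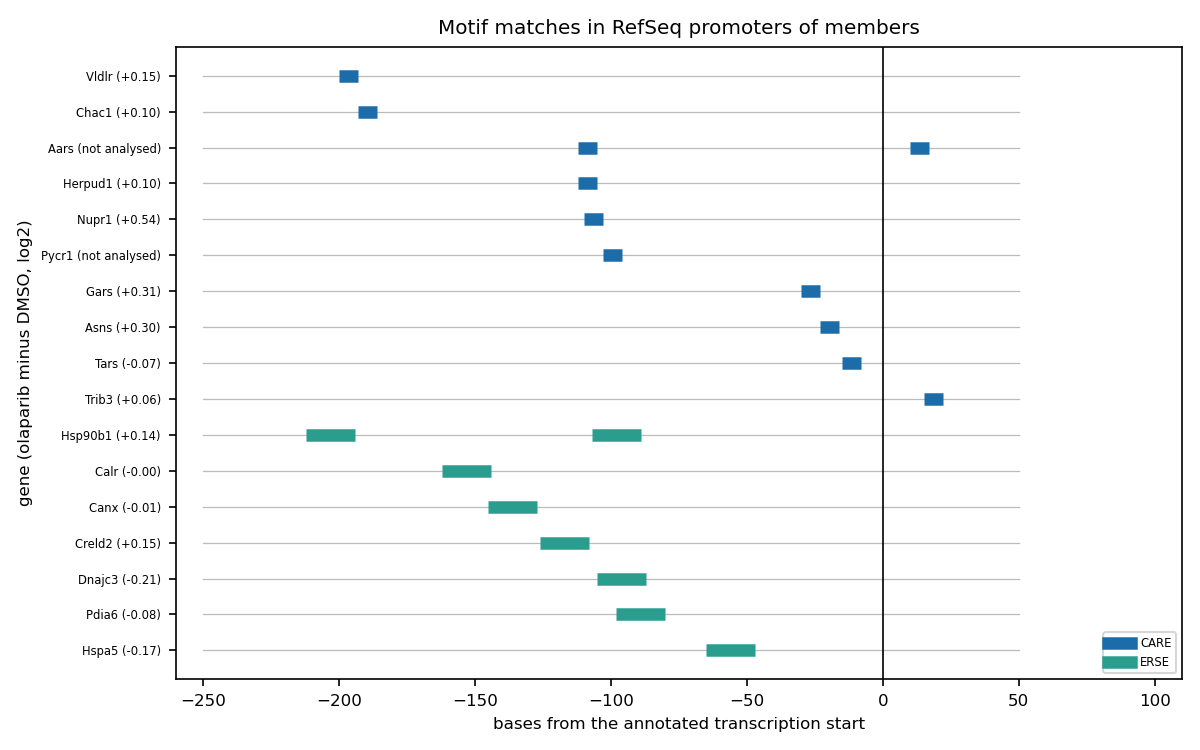
Positions of motif matches (coloured bars) in the promoter window of each member that holds any, in bases from the annotated transcription start (vertical line), with the olaparib minus DMSO change (log2) beside the gene name. CARE matches (blue) lie between -200 in Vldlr and 22 in Trib3, and ERSE matches (green) between -212 and -47, all before the start.

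The full promoters of 3 members are given, since the results turn on the first pair and Hspa5 is the reference chaperone of ER stress. Nupr1 holds CARE on the opposite strand, so the capitals read as its reverse complement. Mthfd2, the member with the largest change, holds neither motif in this window. Hspa5 holds ERSE from -65 to -47.
Nupr1, chr7:126625421-126625720, minus strand: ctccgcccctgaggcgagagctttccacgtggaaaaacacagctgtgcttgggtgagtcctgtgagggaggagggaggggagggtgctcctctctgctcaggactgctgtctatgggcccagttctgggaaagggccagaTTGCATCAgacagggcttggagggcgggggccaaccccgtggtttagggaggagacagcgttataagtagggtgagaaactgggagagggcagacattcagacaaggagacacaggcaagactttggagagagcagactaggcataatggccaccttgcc
Mthfd2, chr6:83317555-83317854, minus strand: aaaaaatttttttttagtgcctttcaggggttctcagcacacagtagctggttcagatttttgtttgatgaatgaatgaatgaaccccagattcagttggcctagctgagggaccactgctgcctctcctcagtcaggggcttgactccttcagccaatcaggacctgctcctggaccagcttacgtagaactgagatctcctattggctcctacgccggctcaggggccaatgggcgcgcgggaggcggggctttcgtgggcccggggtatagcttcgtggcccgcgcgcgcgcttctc
Hspa5, chr2:34771840-34772139, plus strand: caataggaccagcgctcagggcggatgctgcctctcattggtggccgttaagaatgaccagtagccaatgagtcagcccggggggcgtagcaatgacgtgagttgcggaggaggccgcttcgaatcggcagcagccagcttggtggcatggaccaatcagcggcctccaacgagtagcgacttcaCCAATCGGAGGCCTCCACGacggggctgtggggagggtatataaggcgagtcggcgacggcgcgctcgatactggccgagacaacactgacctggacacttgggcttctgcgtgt

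Of the 46 members tested, 4 were higher and 1 was lower in the olaparib group, with an adjusted p below 0.05 in limma (lmFit and eBayes, Benjamini-Hochberg over 13956 genes). That is 8.70% higher and 2.17% lower. Over all genes tested 2.84% were higher and 3.37% lower, or 6.22% in both directions. The 4 were Mthfd2, Nupr1, Atf4 and Ddit3, and the 1 that fell was Phgdh. At an unadjusted p under 0.05 there were 9 higher and 3 lower members, or 12 in all. Of all genes tested 9.18% were higher and 9.88% lower at that p, or 19.1% in all. The median change of the 46 members was 0.044, against 0.0013 over all genes tested. The olaparib and DMSO arrays did not overlap in 30 members, with olaparib above in 18 and below in 12. Of all genes tested 47.1% did not overlap, 23.2% with olaparib above and 23.9% below, so the share above is larger among members and the share below is close to the background.

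These calls rest on how the spread is estimated. With all 21704 probe sets above the same signal in the fit, 0 members passed, and over all genes 1 was higher and 11 lower (0.086% of gene rows). The calls among members also moved with the array left out. Leaving out either DMSO array left fewer members past the threshold, and leaving out either olaparib array left more. The number of all genes tested past it moved the same way each time. Mthfd2 and Nupr1 passed in 14 of 15 refits each, Atf4 in 12, Phgdh in 10 and Ddit3 in 9. The refits reuse the same 4 arrays. A floor at the 10th percentile of signal returned the same 5 calls as the main fit. So did a robust variance model, array weights and the mean of probe sets. Such counts are therefore not independent support.

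**Figure D2:**
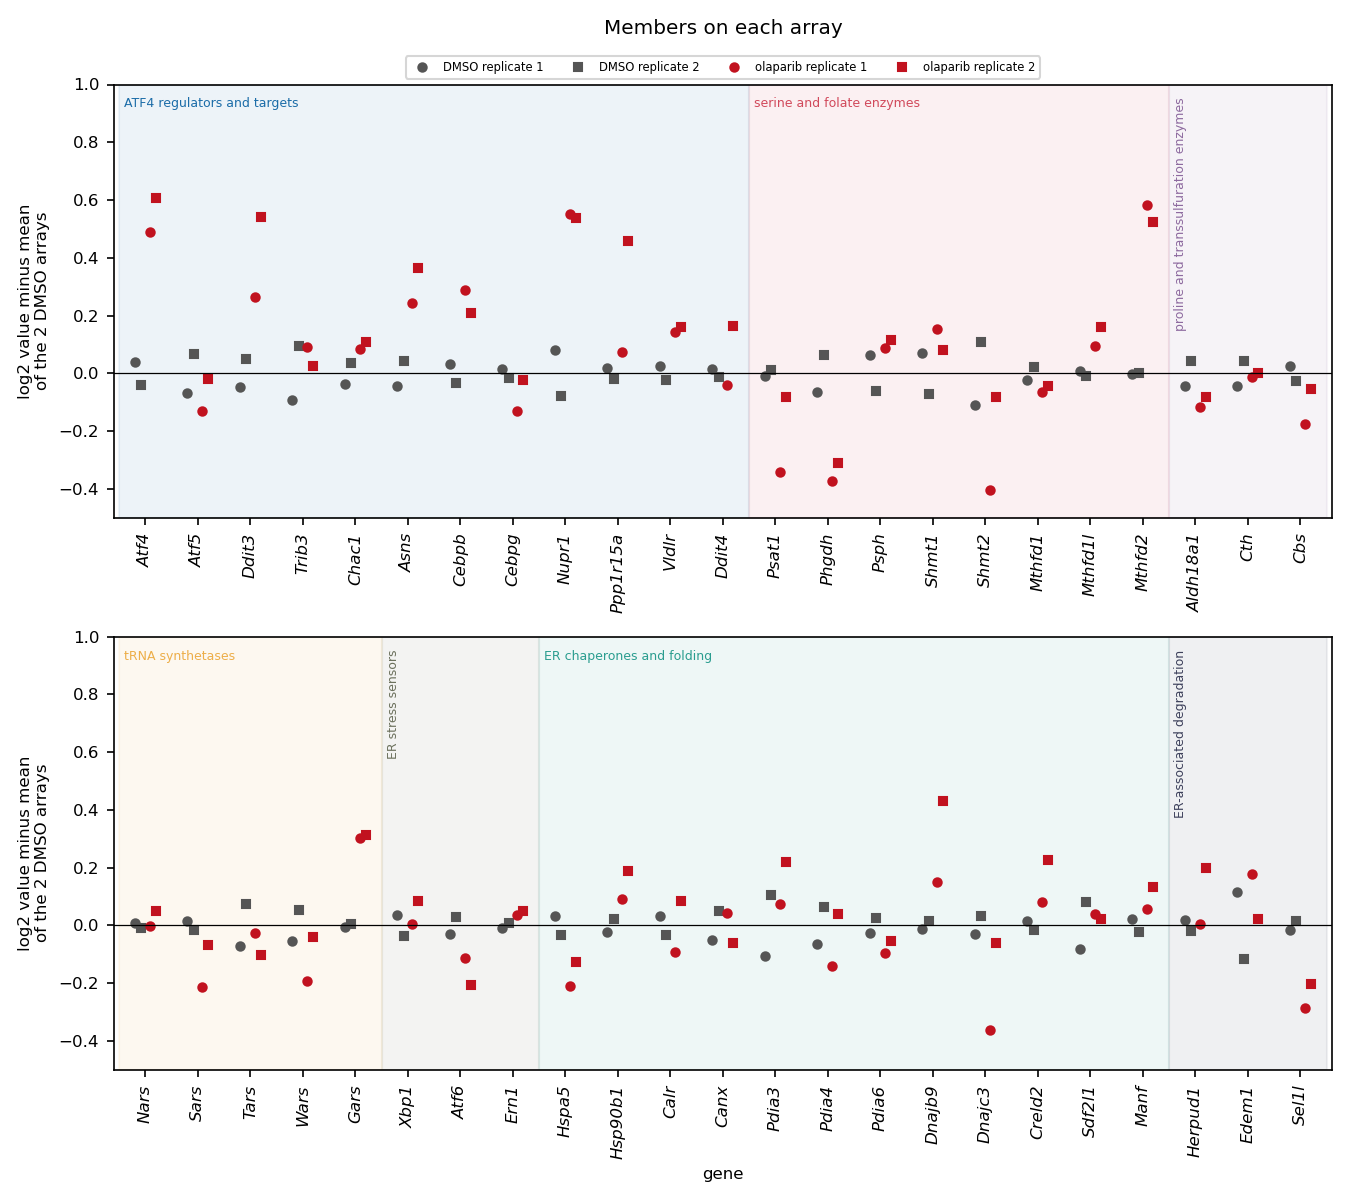
Log2 value of each of the 46 members on each array, minus the mean of the 2 DMSO arrays (grey: DMSO, red: olaparib, circles: replicate 1, squares: replicate 2), in blocks by role. Both olaparib arrays stand above both DMSO arrays for Atf4, Ddit3, Asns, Nupr1, Mthfd2 and Gars, and below them for Phgdh, Sel1l, Psat1 and Dnajc3. For Psat1, Shmt2 and Dnajc3 the olaparib arrays stand apart from each other, and Shmt2 overlaps between the groups.

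Among the transcription factors and targets of ATF4, 3 of 12 rose (25%) and 0 fell, where 2.84% and 3.37% of all genes tested did. Of the 12 differences 10 were above 0, as were 7043 of 13956 over all genes tested, and the median of the 12 was 0.20. The median was 0.12 without olaparib replicate 2. Atf4, which encodes the factor itself, measured 8.86 and 8.78 (log2 values) with DMSO and 9.31 and 9.43 with olaparib. The groups lay 0.45 apart at their nearest, wider than the spread within either. Atf4 rose by 0.55 (SE 0.11, adjusted p = 0.00350 in limma), a 1.46-fold change. Atf4 missed the threshold in the refits that drop DMSO replicate 1 (adjusted p = 0.0772) or DMSO replicate 2 (adjusted p = 0.169, the highest of its 15 refits), and also once all probe sets entered the fit (adjusted p = 0.0988).

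Nupr1 encodes a small chromatin protein induced by many stresses and acts beside ATF4. It measured 7.16 and 7.00 with DMSO and 7.63 and 7.62 with olaparib. The olaparib arrays nearly coincided, and both stood above the DMSO arrays. Nupr1 rose by 0.54 (SE 0.082, adjusted p = 0.000302, limma), a 1.46-fold change, and missed the threshold only where all probe sets entered the fit (adjusted p = 0.0711).

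Ddit3 encodes CHOP, the factor that ATF4 induces under prolonged stress. It measured 7.89 and 7.99 with DMSO and 8.21 and 8.48 with olaparib. The groups were separated, but the olaparib arrays differed by more than the DMSO arrays did. Ddit3 rose by 0.40 (SE 0.10, adjusted p = 0.0218, limma), by 0.54 with olaparib replicate 2 alone and by 0.26 with olaparib replicate 1 alone. It missed the threshold when DMSO replicate 1 (adjusted p = 0.357, the highest of its refits), DMSO replicate 2 (0.101) or olaparib replicate 2 (0.0604) was dropped, without a filter, under median centring or with all probe sets in the fit.

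Asns, the enzyme that makes asparagine, measured 8.02 and 8.11 with DMSO and 8.31 and 8.43 with olaparib, again with no overlap. Its difference of 0.30 (95% interval 0.10 to 0.50) missed the threshold (adjusted p = 0.0653 in limma), and 4 of 15 refits put it past. Cebpb, a partner of ATF4 on CARE, differed by 0.25 (adjusted p = 0.0647, limma), with 7.11 and 7.05 against 7.37 and 7.29. Ppp1r15a, which encodes the phosphatase subunit GADD34 that reverses eIF2alpha phosphorylation, showed a different picture. It measured 7.18 and 7.14 with DMSO, then 7.24 on olaparib replicate 1 and 7.62 on olaparib replicate 2. The difference of 0.27 (adjusted p = 0.127, limma) therefore became 0.073 without olaparib replicate 2, and 0.46 without olaparib replicate 1, where it passed (adjusted p = 0.000275).

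Other well-known targets of ATF4 differed little. Chac1, which degrades glutathione, measured 6.76 and 6.83 with DMSO and 6.88 and 6.90 with olaparib, a difference of 0.097 (95% interval -0.063 to 0.26). Trib3, a pseudokinase that restrains ATF4, measured 6.39 and 6.57 against 6.57 and 6.51, and its groups overlapped. Its difference of 0.059 had an interval from -0.12 to 0.24. Both lie close to the filter of 6.42. The sign of Trib3 turned without DMSO replicate 1 (-0.035). Ddit4, an inhibitor of mTORC1, differed by 0.061 and the lipoprotein receptor gene Vldlr by 0.15. The bZIP genes Atf5 and Cebpg differed by -0.074 and -0.076, and none of these passed.

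Serine and folate enzymes moved in both directions, with 1 of 8 higher, 1 lower (12.5% each) and a median of 0.024. Of all genes tested 2.84% were higher and 3.37% lower. Mthfd2, the mitochondrial methylenetetrahydrofolate dehydrogenase of growing cells, measured 6.92 and 6.92 with DMSO and 7.50 and 7.44 with olaparib. The DMSO arrays nearly coincided, and the olaparib arrays lay well above them. Mthfd2 rose by 0.55 (SE 0.077, adjusted p = 0.000137, limma), a 1.47-fold change. Where all probe sets entered the fit its adjusted p was 0.0588, the highest of its refits.

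The 3 enzymes that make serine from a glycolytic intermediate did not follow Mthfd2. Phgdh, the first and rate-limiting step, measured 8.02 and 8.14 with DMSO and 7.70 and 7.77 with olaparib, with no overlap. It fell by 0.34 (log2; SE 0.090, adjusted p = 0.0260, limma), to 0.789 of the DMSO level. It missed the threshold when DMSO replicate 1 (adjusted p = 0.111) or DMSO replicate 2 (0.408, the highest of its refits) was dropped, without a filter, under median centring or with all probe sets in the fit (0.186). Psat1, the next step, measured 9.63 and 9.65 with DMSO, then 9.30 on olaparib replicate 1 and 9.56 on olaparib replicate 2. Its difference of -0.21 (95% interval -0.46 to 0.035, adjusted p = 0.357 in limma) became -0.34 with olaparib replicate 1 alone, where it passed (adjusted p = 0.0161), and -0.080 with olaparib replicate 2 alone. Psph, the last step, measured 8.80 and 8.67 against 8.82 and 8.85, a difference of 0.10 (interval -0.11 to 0.32).

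Shmt2, which splits serine to glycine in mitochondria, measured 8.46 and 8.68 with DMSO and 8.17 and 8.49 with olaparib. The groups overlapped, since olaparib replicate 2 exceeded DMSO replicate 1. The difference was -0.24 (adjusted p = 0.253, limma). With olaparib replicate 1 alone it was -0.40 and passed (adjusted p = 0.00373), and with olaparib replicate 2 alone it was -0.080. Its cytosolic counterpart Shmt1 differed by 0.12. Mthfd1l, which completes the mitochondrial folate branch, differed by 0.13, and the cytosolic Mthfd1 by -0.055, none past the threshold. The proline enzyme Aldh18a1 (-0.10) and the transsulfuration enzymes Cbs (-0.11) and Cth (-0.0050) did not pass either.

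Of 5 tRNA synthetases measured, 0 passed, also with all probe sets in the fit, and the median was -0.065. In the main fit 6.22% of all genes passed, so 0 of 5 is near the background. At an unadjusted p under 0.05 there was 1, where 19.1% of all genes were under it. The 1 was Gars, the glycyl-tRNA synthetase, with 8.74 and 8.75 with DMSO and 9.05 and 9.06 with olaparib. Its arrays were among the closest pairs of any member, and the groups lay 0.30 apart. The difference of 0.31 (95% interval 0.093 to 0.52) had an adjusted p of 0.0840 in limma, and 5 of 15 refits put it past the threshold. The others differed by 0.024 (Nars), -0.065 (Tars), -0.12 (Wars) and -0.14 (Sars). Tars, Wars and Nars overlapped between the groups, and Sars was lower on both olaparib arrays.

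None of the 18 ER sensors, chaperones and degradation factors passed (2 at an unadjusted p under 0.05, 1 in each direction, and 0 with all probe sets in the fit). Of all genes tested 6.22% passed in the main fit and 19.1% had an unadjusted p under 0.05. With so few genes, 0 of 18 is near that background. The median change of the 18 was 0.038. Hspa5, the chaperone BiP that holds the ER sensors inactive, measured 10.30 and 10.24 with DMSO and 10.06 and 10.14 with olaparib. Both olaparib arrays were the lower, and the difference was -0.17 (95% interval -0.41 to 0.076, adjusted p = 0.503 in limma). A rise of Hspa5 above 0.076 on the log2 scale lies outside this interval. The interval rests on 2 arrays a group and on the spread in the main fit, so a larger rise is not excluded. Xbp1 measured 7.06 and 6.98 against 7.02 and 7.11, with overlap, and its difference of 0.045 had an interval from -0.12 to 0.21. The array does not tell spliced from unspliced Xbp1. The sensor genes Atf6 and Ern1 differed by -0.16 and 0.044.

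Among the chaperones, 6 differences were above 0 and 6 below, with a median of 0.014, which turned negative under quantile normalization (-0.025), under cyclic loess (-0.019) and without DMSO replicate 1 (-0.010). Dnajb9, a co-chaperone of BiP that IRE1 signalling raises, measured 9.10 and 9.13 with DMSO, then 9.27 and 9.55 with olaparib. Its difference of 0.29 (adjusted p = 0.159, limma) became 0.15 with olaparib replicate 1 alone and 0.43 with olaparib replicate 2 alone, where it passed (adjusted p = 0.00149). Dnajc3, another co-chaperone, measured 9.93 and 10.00 against 9.60 and 9.90, a difference of -0.21 (adjusted p = 0.387, limma). It was -0.36 with olaparib replicate 1 alone, where it passed (adjusted p = 0.0116), and -0.061 with olaparib replicate 2 alone. The lectin chaperones Calr and Canx differed by -0.0032 and -0.0099, and the disulfide isomerases Pdia3, Pdia4 and Pdia6 by 0.15, -0.050 and -0.076. Hsp90b1, the ER form of HSP90, differed by 0.14. The secreted or luminal stress proteins Creld2, Manf and Sdf2l1 differed by 0.15, 0.094 and 0.032.

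Of the factors that return misfolded proteins to the cytosol, Sel1l, a scaffold of the ubiquitin ligase in the ER membrane, measured 8.40 and 8.44 with DMSO and 8.14 and 8.22 with olaparib. The groups did not overlap, and the difference was -0.24 (95% interval -0.44 to -0.045, adjusted p = 0.150 in limma), with 3 of 15 refits past the threshold. Herpud1, which both ATF4 and the ER sensors raise, measured 7.64 and 7.60 against 7.63 and 7.82. Its groups overlapped, and the difference was 0.10 (interval -0.084 to 0.29). Edem1, a mannosidase-like protein, differed by 0.10, also with overlap.

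**Figure D3:**
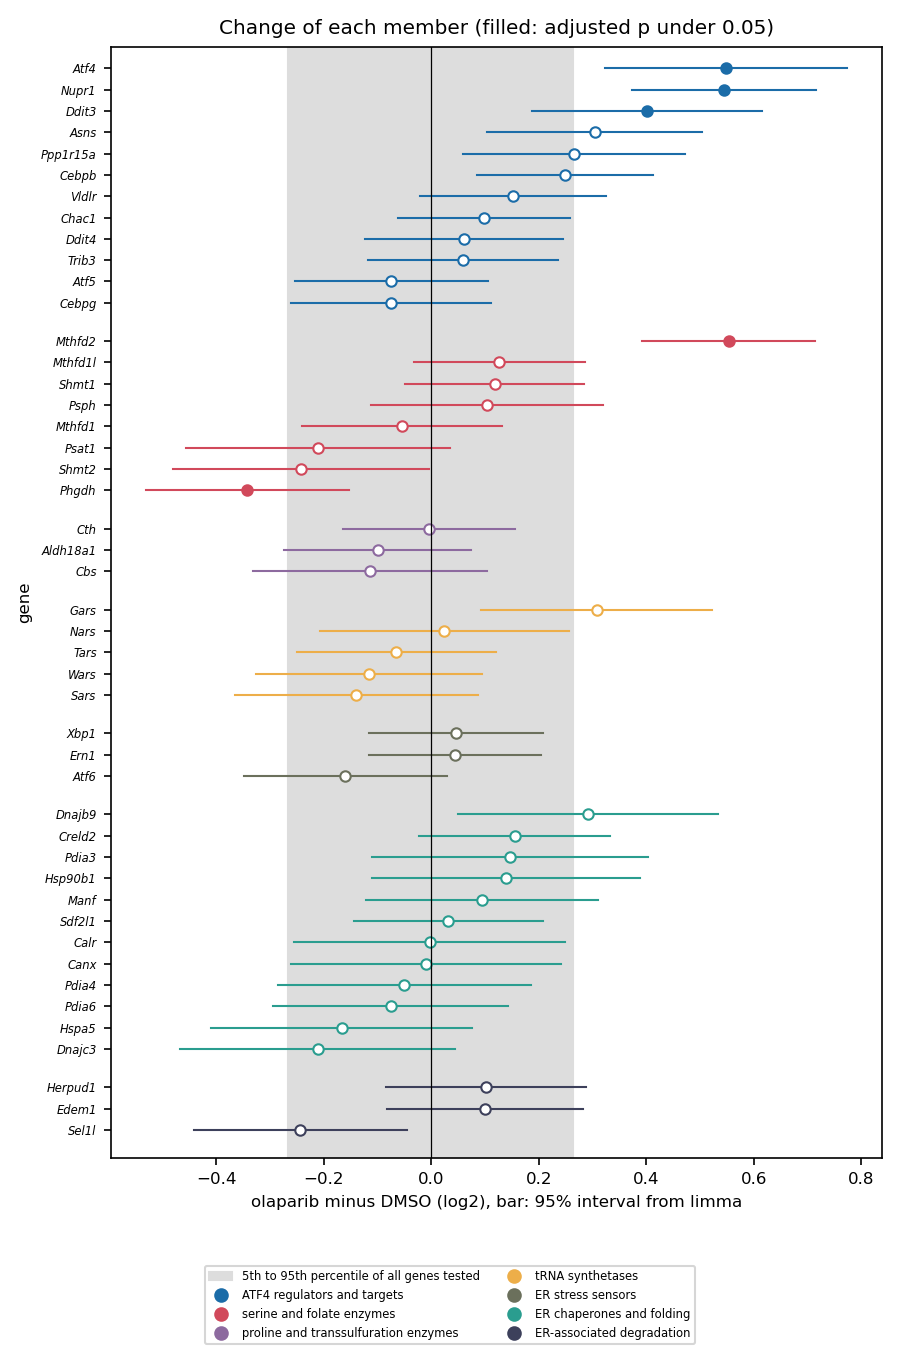
Olaparib minus DMSO change (log2) of each of the 46 members with its 95% interval from limma, by role, against the 5th to 95th percentile of all genes tested (grey, from -0.27 to 0.26). Filled points passed an adjusted p of 0.05: Atf4, Nupr1, Ddit3 and Mthfd2 to the right and Phgdh to the left, while the ER genes scatter around 0.

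The olaparib arrays differed from each other more than the DMSO arrays did. Of the 46 members, 36 (78.3%) were higher on olaparib replicate 2 than on olaparib replicate 1, with a median gap of 0.079. Over all genes tested the share was 55.4% and the median gap 0.023. These shares are not matched for signal level. Over all probe sets, olaparib replicate 2 had a wider spread (SD 1.28) and a lower median (6.60) than olaparib replicate 1 (1.23 and 6.68). The part of signal level in the members' share was not tested. Between the DMSO arrays 26 of the 46 were higher on replicate 2, with a median gap of 0.020. The mean level of the 12 chaperones was 9.59 and 9.71 on the olaparib arrays and 9.60 and 9.65 on the DMSO arrays. That of the 12 ATF4 regulators and targets was 7.67 and 7.77 against 7.50 and 7.52. The ATF4 group thus lay above DMSO on both olaparib arrays, and the chaperones did not.

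Beyond the members, 105 other genes of these pathways were listed by function, of which 93 were tested. The list was made with earlier results of these data known, so its shares are no independent check. Of the 93 genes 11 rose (11.8%, where 2.84% of all genes did) and 3 fell (3.23%, where 3.37% did), with a median of -0.015. Fewer passed with either DMSO array left out and more with either olaparib array left out, as over all genes tested. With all probe sets in the fit 0 passed.

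Among other known ATF4 targets 6 of 16 rose (37.5%), 2 fell (12.5%) and the median was 0.23. Of all genes tested 2.84% rose and 3.37% fell. Got1, the cytosolic aspartate aminotransferase, measured 8.15 and 8.14 with DMSO and 8.66 and 8.77 with olaparib, and rose by 0.57 (SE 0.10, adjusted p = 0.00107, limma). Slc7a11, the cystine transporter, rose by 0.53, and the stress factor gene Atf3 by 0.51. Sesn2, an inhibitor of mTORC1, rose by 0.41, the translation inhibitor gene Eif4ebp1 by 0.39 and the cationic amino acid transporter gene Slc7a1 by 0.32. Without olaparib replicate 2 Sesn2 differed by 0.22 and Slc7a1 by 0.21, and neither passed. CARE was held by 8 of the 84 other pathway genes with a promoter (9.52%), against 4.51% of all genes with a promoter. Of these 8, Got1, Slc7a11, Atf3 and the tRNA synthetase gene Iars rose. Over all tested genes that hold CARE 5.46% were higher. The other 4 did not pass, with differences of -0.30 (Txndc5), -0.091 (Fgf21), 0.12 (Jdp2) and 0.13 (Yars).

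The 2 targets that fell were Slc6a9 and Gpt2. Slc6a9, the glycine transporter GlyT1, measured 8.98 and 8.82 with DMSO and 8.13 and 8.27 with olaparib, and fell by 0.70 (log2; SE 0.10, adjusted p = 0.000259, limma). Gpt2, the mitochondrial alanine aminotransferase, fell by 0.46. Gldc, the decarboxylase that opens the glycine cleavage system, was the 1 gene of 12 other folate and glycine enzymes to pass. That share of 8.33% is near the 6.22% of all genes tested. It measured 7.96 and 7.96 with DMSO and 7.54 and 7.62 with olaparib, and fell by 0.38 (SE 0.086, adjusted p = 0.00998, limma).

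Of 13 further cytosolic tRNA synthetases, Iars (isoleucine) rose by 0.48 and Cars (cysteine) by 0.39, and 0 fell. That is 15.4% called, where 6.22% of all genes tested were. Iars has more than 1 probe set, and when these were averaged it differed by 0.27 and did not pass. Among 16 mitochondrial synthetases only Yars2 passed and rose by 0.36. That share of 6.25% is near the background of 6.22%. Of 8 eIF2alpha kinases and partners 1 passed (12.5%, where 6.22% of all genes did), which with so few genes is near the background. It was Eif2ak2, the kinase PKR that double-stranded RNA activates, which rose by 0.36. Of 28 other ER genes, 22 differences were below 0, as were 6913 of 13956 over all genes tested, and the median of the 28 was -0.084. Of these ER genes 1 passed (3.57%, where 6.22% of all genes did). It was Creb3l1, an ER-anchored transcription factor, which rose by 0.46 and without olaparib replicate 2 differed by 0.24 and did not pass. Without DMSO replicate 1, calls were lost for Eif2ak2, Sesn2, Eif4ebp1, Gpt2, Slc7a11, Slc7a1, Gldc, Iars and Yars2. Without DMSO replicate 2 they were lost for Sesn2, Eif4ebp1, Slc7a11, Slc7a1, Gldc, Cars, Iars and Creb3l1.

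**Figure D4:**
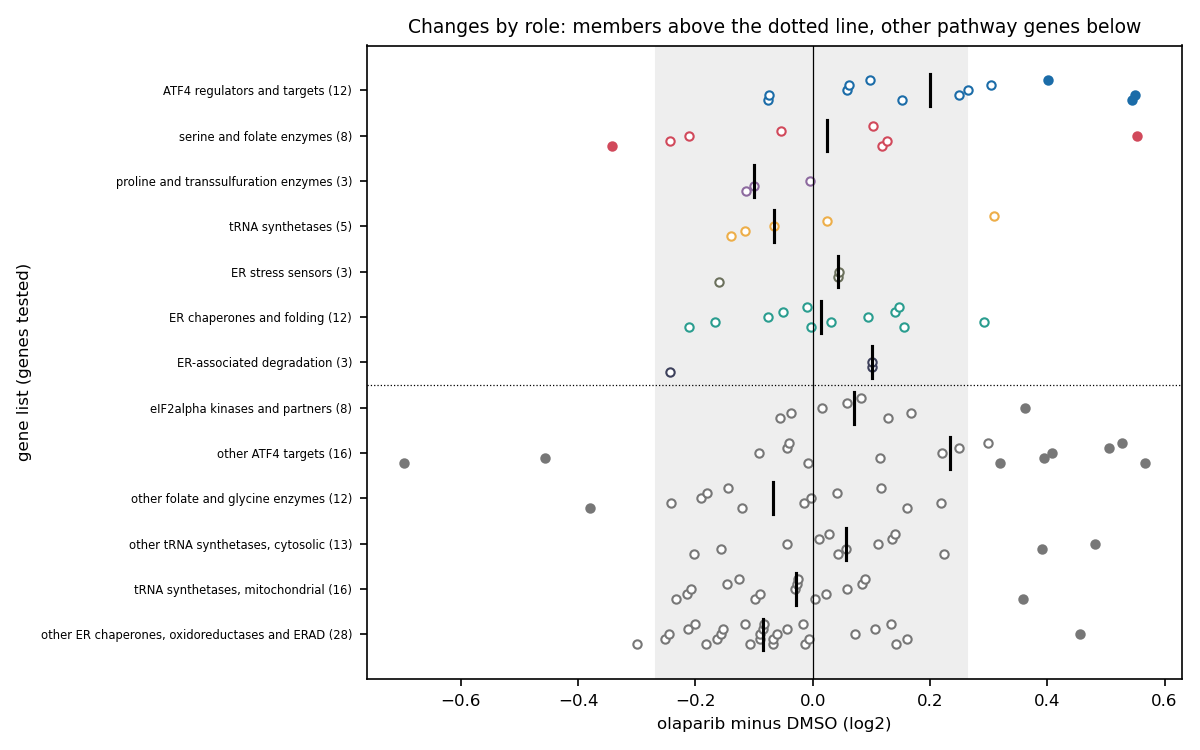
Olaparib minus DMSO change (log2) of every gene tested in each role group of members (coloured) and in each list of other pathway genes (grey), with the number tested in parentheses; black bars are medians, filled points passed an adjusted p of 0.05 and the shaded band spans the 5th to 95th percentile of all genes tested. The medians of the ATF4 regulators and targets (0.20) and of the other ATF4 targets (0.23) stand to the right of those of the ER lists.

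The labelled cell type was checked against markers. Sums of log2 levels are read only between arrays within a list, and they hide opposite changes. Of 9 neural stem and progenitor markers 8 had a probe set. All 8 lay above the filter, with a sum of 81.6 to 81.8 with DMSO and 80.4 to 81.3 with olaparib, and none passed. Nes (0.23) and Vim (0.16) differed upward. Egfr (-0.38), Slc1a3 (-0.31), Sox2 (-0.23), Olig2 (-0.16), Hes5 (-0.093) and Fabp7 (-0.031) differed downward. Of 5 astrocyte markers 4 lay above the filter and 2 fell (Gfap and Aqp4), with sums of 46.8 in both DMSO arrays and 44.5 to 45.5 with olaparib. Aldoc differed by -0.15 and S100b, in the other direction, by 0.17, neither past the threshold. Of 6 neuroblast markers 5 lay above the filter and 1 fell (Dcx), with sums of 47.5 to 47.6 against 45.3 to 45.7. Tubb3 (-0.32), Dlx2 (-0.27), Sox11 (-0.22) and Dlx1 (-0.20) also differed downward, none past the threshold. Of 4 oligodendrocyte lineage markers with a probe set 1 rose (Cspg4), with sums of 27.8 to 28.0 against 28.2 to 28.6. Mbp (0.26) and Mog (0.15) also differed upward and Pdgfra (-0.23) downward, none past the threshold. Only 2 of 5 microglial markers and 1 of 5 vascular or fibroblast markers lay above the filter, and their summed levels overlapped between the groups. Ependymal markers, 3 of 4 above the filter, summed to 27.8 to 27.9 against 27.3 to 27.6. The part of these shifts in the falls of Phgdh, Slc6a9 and Gldc was not tested.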

How the data were processed

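From each sample 40 ng of total RNA was amplified and biotin-labelled for Affymetrix arrays, per the labels' protocols. The authors deposited log2 values, which were used as given. Their normalization and background correction are not given in the sources, and the log2 scale was inferred from the range of values. Of 34760 probe sets, 21640 name 1 gene, 1321 several and 11799 none in the platform annotation. A gene was represented by its brightest single-gene probe set, with symbols updated through RefSeq (19855 of 19937 genes matched). Levels of different probe sets are not comparable, so only differences are set side by side.

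The test of olaparib minus DMSO took genes with a mean over the 30th percentile, 6.42. It was made with limma 3.58.1 (lmFit and eBayes with trend) under R 4.3.3, two-sided. Adjusted p-values and 95% intervals are from that fit, unless a refit is named beside them. The code of the step was run on arrays simulated from its own model. The 48 members, the pathway and marker lists and the alternatives were chosen with earlier results of these data known. The members named with values on every array are those past the threshold, a set of reference genes named by role, and others chosen after their values were seen (Cebpb, Ppp1r15a, Gars, Dnajb9, Dnajc3 and Sel1l). Of the pathway genes, those past the threshold are named. Alternatives were other filters, normalizations, variance models, probe set rules and thresholds, and leaving out each array, where the lone array is assumed to vary like the other group. A fit with the replicate number as a block was added after seeing the data. Promoters are from RefSeq (GRCm38.p6). Figures used matplotlib 3.10.9 under Python 3.11.15.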

Additional observations from a re-analysis of the deposited data

How the results depend on the processing

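With 2 arrays a group, calls depend on the estimate of spread. Among members, 4 higher and 1 lower became 7 and 2 under cyclic loess, 0 and 0 with all probe sets in the fit, and 7 higher at an adjusted p under 0.1. The lower count was 0 without a filter, under median centring and at a fold of 1.3, and 2 under quantile normalization. With 1 array left out, members higher ran from 2 to 8 and lower from 0 to 5. Pathway genes (11 and 3) were 0 and 0 with all probe sets in the fit, and from 4 to 16 and from 1 to 9 with an array left out. Over all genes, 397 higher and 471 lower became 257 higher without a filter, 779 lower under quantile normalization, 732 lower under cyclic loess, 1 and 11 with all probe sets, 606 and 715 at an adjusted p under 0.1, and 249 and 273 at a fold of 1.3. With an array left out they ran from 97 to 1274 and from 161 to 1032.

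Medians of role groups moved by more than the spread of the group mean mainly where an array was left out. They then ran from 0.12 to 0.22 (ATF4 regulators and targets), from -0.12 to -0.054 (proline and transsulfuration), from -0.13 to 0.0077 (tRNA synthetases), from 0.0047 to 0.051 (ER sensors) and from -0.017 to 0.12 (degradation). The chaperone median stayed within that spread but turned sign, with -0.025 under quantile normalization, -0.019 under cyclic loess and -0.010 to 0.062 with an array left out. The ER sensor median was -0.057 with a filter at the 50th percentile, which drops Ern1, 0.043 under quantile normalization and 0.049 under cyclic loess. Where both olaparib arrays lay above both DMSO arrays (18 members) or below them (12), leaving out an array cannot turn the sign. Refits that change only the filter or the variance model leave each difference as it was. Of the 46 members, 36 kept the sign of their difference under every alternative, which was thus partly fixed in advance. The other 10, none of them past the threshold, did not. With an array left out, the differences of these 10 ran from -0.035 to 0.15 (Trib3), from -0.040 to 0.16 (Ddit4), from -0.047 to 0.037 (Cth), from -0.0016 to 0.049 (Nars), from -0.14 to 0.0077 (Tars), from -0.090 to 0.084 (Calr), from -0.062 to 0.042 (Canx), from -0.14 to 0.041 (Pdia4), from -0.049 to 0.11 (Sdf2l1) and from -0.017 to 0.22 (Edem1). Cth differed by 0.0047 under cyclic loess, and Nars by -0.021 under quantile normalization and -0.022 under cyclic loess. A replicate block (1 for the first array of each group) was added after seeing the data and is not among the 15 refits. The labels do not tie arrays across groups by number, and over genes the deviations of same-numbered arrays from their group means correlated at 0.168, with 2 pairs only, so the arrays share a number and no more. With the replicate block 8 members were higher and 1 lower, 12 and 8 pathway genes, and 761 and 854 of all genes, and the 19 members and pathway genes called without it all passed.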
